A study of Mus musculus with 10 samples.

Results

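The insulin-like growth factor (IGF) family was examined here through 10 genes, namely the ligands Igf1 and Igf2, the receptors Igf1r and Igf2r, and the binding proteins Igfbp2 to Igfbp7, among 36009 genes in the expression table. They were chosen by name, as the rows whose gene name matched a member, and each name had a single row. RNA came from 10 subcutaneous CT26 tumors, a mouse colorectal carcinoma line, grown in wild-type female BALB/c mice. All tumors were untreated when sampled. The piece removed by surgery was sequenced, and a hydrogel that releases poly(I:C), a synthetic double-stranded RNA, was then placed on the tumor left behind. The 6 responders were tumors from mice with complete regression, and the 4 non-responders were tumors that grew without delay. The age of each mouse was not given in the labels, and only transplanted tumors of a single cell line were compared. Each tumor came from a separate mouse, so the p-values measure the spread between mice.

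IGF-1 and IGF-2 are secreted peptides that signal for growth and survival through IGF1R, a tyrosine kinase receptor that acts through IRS adaptors, PI3K, AKT and mTOR. IGF2R, also known as the cation-independent mannose 6-phosphate receptor, lacks a kinase, carries IGF-2 to lysosomes for breakdown and also sorts lysosomal enzymes. The binding proteins hold IGFs in blood and matrix and limit or prolong their access to IGF1R, and proteases such as PAPP-A release the ligands by cutting them. In solid tumors IGFs and their binding proteins are known as products of both stroma and tumor cells.

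Total estimated counts ran from 23374649 to 38042544 per tumor. On the first principal component of log2 CPM (a gene's count as a rate of its library's scaled total, the unit used throughout), which held 38.6% of the variance, non-responder 1 lay lowest at -54.7 and responder 5 highest at 40.2. Of 10 markers of colorectal epithelium, 5 were too low to be tested (Epcam, Krt8, Krt18, Cdx1 and Vil1), with Epcam between 0.121 and 0.709 CPM, while Krt20 was between 12.7 and 75.3 CPM. No marker of that list was at 0 in every tumor.

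The start regions of the only members that were called in the comparison are shown first, for reference beside their values. Each runs from 250 bases before to 50 bases after the annotated start on the gene's strand, from RefSeq on GRCm38.p6. Capitals mark the motifs searched on both strands, namely the TATA box with the letters TATAAA, the CCAAT box, the GC box with the letters GGGCGG and the E-box with the letters CACGTG.
Igf2r (chr17:12769657-12769956, minus strand): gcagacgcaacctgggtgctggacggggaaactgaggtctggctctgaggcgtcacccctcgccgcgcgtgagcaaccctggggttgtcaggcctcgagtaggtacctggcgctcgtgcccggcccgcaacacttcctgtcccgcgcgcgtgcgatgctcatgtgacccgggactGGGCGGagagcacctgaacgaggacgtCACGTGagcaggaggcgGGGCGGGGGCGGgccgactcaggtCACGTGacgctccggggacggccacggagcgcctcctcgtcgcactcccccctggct
Igfbp5 (chr1:72874816-72875115, minus strand): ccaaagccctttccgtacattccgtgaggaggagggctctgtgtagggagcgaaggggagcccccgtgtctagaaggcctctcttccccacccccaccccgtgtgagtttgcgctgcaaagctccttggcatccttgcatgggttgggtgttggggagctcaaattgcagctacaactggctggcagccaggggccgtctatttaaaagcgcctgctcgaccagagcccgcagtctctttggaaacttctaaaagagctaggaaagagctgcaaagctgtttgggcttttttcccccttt

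The Igf2r window held 3 GC boxes and 2 E-boxes, and the Igfbp5 window held none of the 4 motifs. A GC box was found in 35.9% and an E-box in 7.17% of 32544 promoter windows of the same length, a CCAAT box in 37.4% and a TATA box in 13.6%. The Igf2r window was 70.7% GC with 34 CpG dinucleotides, and 7.02% of windows had more. The Igfbp5 window was 56.3% GC with 10 CpG dinucleotides, against a median of 7 over all windows. A motif match describes the letters and is not evidence of binding.

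The comparison of responders with non-responders asked which features of the tumor, present before treatment, differed by later response. In the IGF family, all responders lay above all non-responders for Igfbp5 and below them for Igf2r, and the other members tested did not pass. Of 10 members, 9 could be tested, since Igfbp2 was near 0 in all tumors. Among the 9, 1 rose and 1 fell at an edgeR adjusted p under 0.05, which is 22.2% of members beside 8.06% of all 16041 genes tested (4.71% higher and 3.35% lower). The groups did not overlap for the same 2 members, beside 10.4% of all genes tested. The excess rests on 2 genes and was not tested, and the members were chosen with earlier results of these data known. The median log2 fold change of the 9 members was 0.04, beside -0.01 over all genes tested, with 5 estimates above 0 and 4 below. In bulk tumor RNA, fewer cells of a type and less RNA per cell cannot be told apart.

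**Figure D1:**
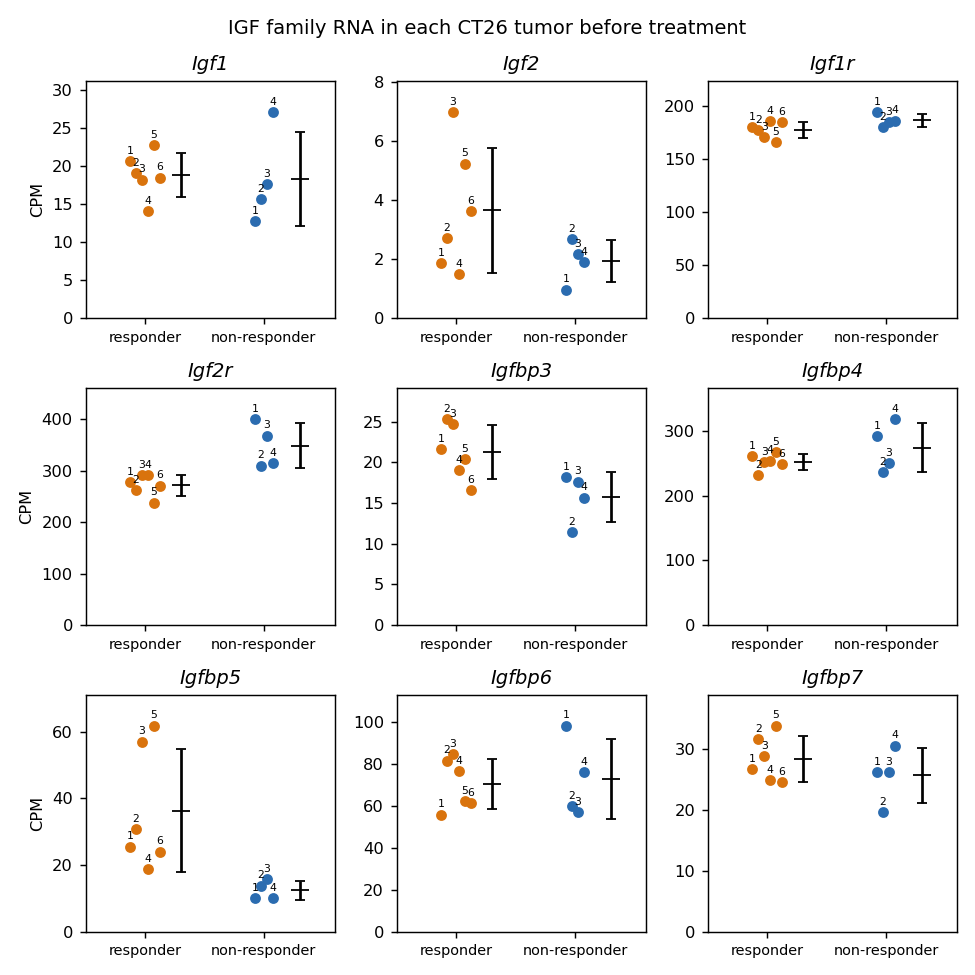
CPM of the 9 members tested (vertical axes, each starting at 0) in 6 responders and 4 non-responders. Points are single tumors labeled by number, and black bars give the mean ± SD. All responders lie above all non-responders for Igfbp5, at 18.7 to 61.8 against 10.01 to 15.9 CPM, and below them for Igf2r, at 238.0 to 291.5 against 309.9 to 401.2 CPM.

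Igfbp5 (ENSMUSG00000026185, chr1:72857932-72874884 on GRCm38) encodes a matrix-associated binding protein. It was at 25.5, 30.7, 57.0, 18.7, 61.8 and 24.0 CPM in responders 1 to 6. In non-responders 1 to 4 it was at 10.2, 13.8, 15.9 and 10.01 CPM. Responders 3 and 5 stood above the rest, and the lowest responder, number 4, was still above the highest non-responder. The means were 36.3 ± 18.4 CPM (SD, n = 6) and 12.5 ± 2.86 CPM (SD, n = 4), 2.92-fold apart, a log2 fold change of 1.55 (SE 0.35, adjusted p = 0.033 in edgeR). The spread between responders was wide, with a coefficient of variation of 50.6% against 22.9% in non-responders. The call was lost without responder 2, 3 or 5 or non-responder 1, 3 or 4 (edgeR adjusted p = 0.0570, 0.0678, 0.0510, 0.0848, 0.0549 and 0.0896), while the log2 fold change stayed between 1.33 and 1.69. It was also lost with limma voom (adjusted p = 0.0581).

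Summed markers of several other cell types were set beside Igfbp5, tumor by tumor. The 9 skeletal muscle markers summed to between 525.4 and 1409 CPM in responders and between 385.6 and 510.4 CPM in non-responders. Of them 3 were called higher, beside 4.71% of all genes tested, and 0 were at 0 in every tumor. Responders 5 and 3, the highest for Igfbp5, also had the highest muscle sums (1409 and 1141 CPM). Responder 4, the lowest responder for Igfbp5, had the lowest sum among responders (525.4 CPM). This was not particular to muscle. In responders 5, 3 and 4 macrophage markers summed to 4542, 3721 and 3068 CPM, and pericyte and smooth muscle markers to 270.8, 232.7 and 131.0 CPM. The first principal component placed them the same way (40.2, 23.6 and -1.64). Among non-responders the muscle sum was highest in number 2 and Igfbp5 in number 3. Sums of the 8 adipocyte markers were 24.6 to 97.3 CPM in responders and 11.9 to 36.3 CPM in non-responders, with 0 of 7 tested called, all 7 estimates above 0 and Lep not tested. Pericyte and smooth muscle markers summed to 131.0 to 270.8 CPM against 99.0 to 137.8 CPM. Of these 8 markers 1 was called higher, Des, at 112.9 against 54.9 CPM on average. Only 4 of the 8 estimates were above 0, and those of Rgs5, Notch3, Myh11 and Kcnj8 were below 0. Their part in the difference of Igfbp5 was not tested.

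Igfbp3 (ENSMUSG00000020427, chr11:7206086-7213923) encodes the main carrier of IGFs in blood. It was at 21.7, 25.4, 24.7, 19.1, 20.4 and 16.6 CPM in responders 1 to 6 and at 18.2, 11.4, 17.6 and 15.7 CPM in non-responders 1 to 4. All responders but number 6 lay above every non-responder. The log2 fold change was 0.44 (SE 0.15), which did not pass over all genes by edgeR (adjusted p = 0.0825, unadjusted p = 0.0127) and passed by DESeq2 (adjusted p = 0.0321).

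The binding protein genes with the highest read counts per exon length did not pass. Igfbp4 (ENSMUSG00000017493, chr11:99041244-99054392), an inhibitory binding protein cut by PAPP-A, was at 231.7 to 267.7 CPM in responders (median 253.7) and at 292.8, 236.4, 250.9 and 319.4 CPM in non-responders 1 to 4. Its log2 fold change was -0.12 (SE 0.08, adjusted p = 0.337 in edgeR). Non-responders 1 and 4 were above all responders, and the other two non-responders lay within the responder range. Igfbp6 (ENSMUSG00000023046, chr15:102144362-102149511), which binds IGF-2 in preference to IGF-1, was at 55.9 to 84.5 CPM in responders (median 69.5) and at 98.3, 59.8, 56.9 and 76.2 CPM in non-responders 1 to 4. The estimate was -0.05 (SE 0.16, adjusted p = 0.876 in edgeR), and the groups overlapped except for non-responder 1, which was the highest of all.

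Igfbp7 (ENSMUSG00000036256, chr5:77349240-77408041) encodes a binding protein of low IGF affinity that is known from blood vessels. It was at 24.5 to 33.8 CPM in responders (median 27.7) and at 26.2, 19.6, 26.1 and 30.6 CPM in non-responders 1 to 4, with overlapping groups and a log2 fold change of 0.15 (SE 0.13, adjusted p = 0.474 in edgeR). Its span overlaps Polr2b on the opposite strand, so reads at the shared end are uncertain. The 9 endothelial markers summed to 104.0 to 162.6 CPM in responders and 86.6 to 128.5 CPM in non-responders. Of them 0 were called, beside 8.06% of all genes tested, and 8 of the 9 estimates were above 0. Igfbp2 (ENSMUSG00000039323, chr1:72824503-72852474) had 0 to 6 counts per tumor and was not tested, with responder 6 and non-responder 1 at 0. A count of 0 allows a level of up to 0.0783 to 0.1301 CPM in these libraries, counting error only. Igfbp1, the liver binding protein, which was not among the members, was at 0 counts in all 10 tumors.

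**Figure D2:**
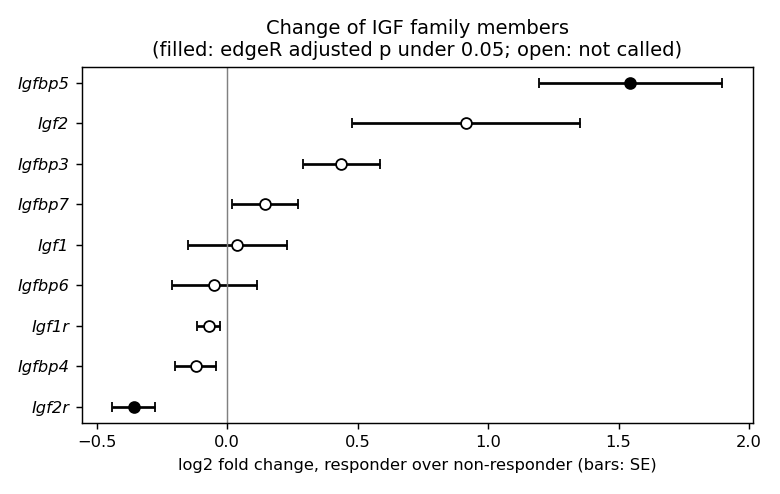
Log2 fold change of responders over non-responders (horizontal axis) for the 9 members tested by edgeR in 10 tumors, with SE as bars. Filled points are the calls, Igfbp5 at 1.55 and Igf2r at -0.36, and the other members are drawn as open points.

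Igf2r (ENSMUSG00000023830, chr17:12682406-12769664) was the receptor that differed. It was at 277.5, 262.5, 291.5, 291.1, 238.0 and 271.2 CPM in responders 1 to 6. In non-responders 1 to 4 it was at 401.2, 309.9, 368.4 and 314.7 CPM. Every responder was below every non-responder, though responders 3 and 4 and non-responder 2 were close. The means were 272.0 ± 20.1 CPM (SD, n = 6) and 348.6 ± 44.0 CPM (SD, n = 4), so Igf2r was 1.28-fold higher in non-responders, a log2 fold change of -0.36 (SE 0.08, adjusted p = 0.033 in edgeR). The call was lost in 8 of the 10 fits that left out a tumor. Without responders 1, 2, 3, 5 and 6 in turn the edgeR adjusted p was 0.0525, 0.0623, 0.0628, 0.0527 and 0.0511, and without non-responders 1, 3 and 4 it was 0.0821, 0.0673 and 0.0666. Without non-responder 1, the highest tumor, the log2 fold change was -0.28, the smallest of these fits. Igf2r overlaps the antisense gene Airn, which was not analysed here, and the strand setting of the counting was not stated.

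Igf1r (ENSMUSG00000005533, chr7:67952827-68233668), the signaling receptor, varied least of the members. It was at 180.1, 177.9, 171.2, 186.0, 165.8 and 185.2 CPM in responders 1 to 6 and at 194.6, 180.3, 185.0 and 186.6 CPM in non-responders 1 to 4. The coefficient of variation was 4.46% in responders and 3.20% in non-responders. The log2 fold change of -0.07 (SE 0.04) did not pass (adjusted p = 0.304 in edgeR). The ratio of Igf2r to Igf1r per kilobase of exon, which does not depend on the scaling of a library, was 2.59 to 3.07 in responders and 3.04 to 3.72 in non-responders, and responder 3 lay above the lowest non-responder.

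Fibroblast and colorectal epithelium marker lists were set beside Igf2r, a receptor made by many cell types. The 10 fibroblast markers summed to 5826 to 6912 CPM in responders and 5058 to 8062 CPM in non-responders. Of them 3 were called lower in responders, namely Pdgfrb, Fap and Postn (log2 fold changes -0.58, -0.78 and -0.77), and 0 higher. Of all genes tested 3.35% were called lower and 4.71% higher. Calls of markers were not followed in the fits that left out a tumor. The 10 epithelial markers summed to 21.0 to 45.9 CPM in responders and 45.0 to 89.0 CPM in non-responders. Of 5 tested 0 were called, and all 5 estimates were below 0. These sums mostly follow Krt20, at 29.1 CPM on average in responders and 52.9 CPM in non-responders (adjusted p = 0.0834 in edgeR). Epcam, Krt8, Krt18, Cdx1 and Vil1 were too low to be tested, and whether this list follows the share of tumor cells was not tested. Of 8 leukocyte and 10 macrophage markers, 3 and 7 were called higher, with sums of 809.4 to 1291 against 445.3 to 794.3 CPM and of 3068 to 4542 against 2134 to 2883 CPM. The part of these cells in the Igf2r and Igfbp5 differences was not tested.

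**Figure D3:**
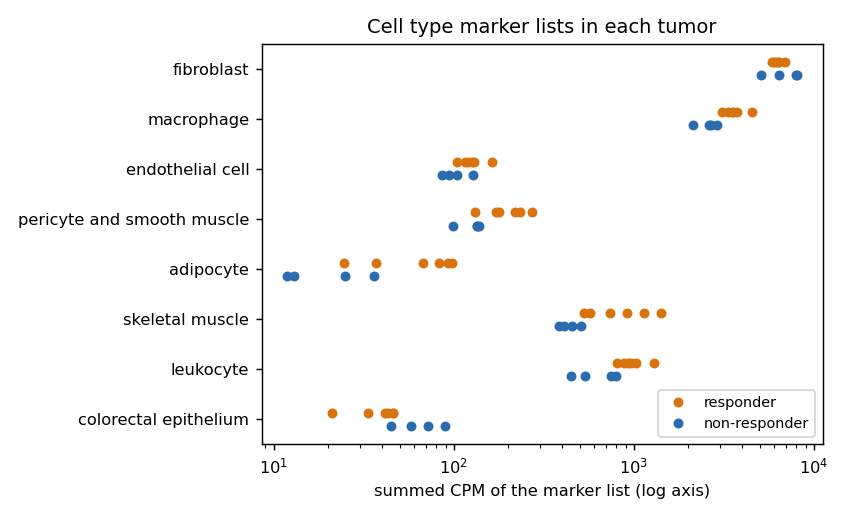
Summed CPM of each cell type marker list (horizontal log axis) in each tumor, with responders and non-responders in separate colors. Skeletal muscle, macrophage and leukocyte sums of responders all lie above those of non-responders, while endothelial, fibroblast and adipocyte sums overlap between groups.

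The ligand Igf1 (ENSMUSG00000020053, chr10:87858265-87937042) was at 20.6, 19.1, 18.2, 14.1, 22.8 and 18.5 CPM in responders 1 to 6 and at 12.8, 15.7, 17.6 and 27.1 CPM in non-responders 1 to 4. Non-responders 1 and 4 were the lowest and the highest of all tumors, and the responders fell between them. The log2 fold change of 0.04 (SE 0.19) did not pass (adjusted p = 0.914 in edgeR). The estimate had no stable sign, since leaving out single tumors gave -0.093 to 0.30.

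Igf2 (ENSMUSG00000048583, chr7:142650766-142666816), the fetal growth factor transcribed from the paternal allele in most tissues, was the lowest member that could be tested, with 24 to 203 counts per tumor. Responders 1 to 6 were at 1.86, 2.72, 6.98, 1.49, 5.23 and 3.63 CPM, and non-responders 1 to 4 at 0.97, 2.69, 2.17 and 1.90 CPM. Responders 3 and 5, the same tumors that were highest for Igfbp5, were highest for Igf2, and responders 1 and 4 lay within the non-responder range. The log2 fold change of 0.92 (SE 0.44) did not pass (adjusted p = 0.191 in edgeR). Igf2 shares its strand and span with Gm49394, at 0 counts in all tumors, so the split of reads between these 2 gene models is uncertain.

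Levels were compared between members per kilobase of annotated exon, as a description over 10 tumors. Igfbp6 was at 64.2 ± 12.8 CPM per kb (SD, n = 10) and Igfbp4 at 59.3 ± 5.98, and these 2 did not differ beyond their spread, with Igfbp6 higher in 5 of 10 tumors. Igf2r followed at 32.5 ± 5.30, above Igfbp4 in no tumor and above Igfbp7 (22.6 ± 3.37) in 9. Igf1r was at 10.8 ± 0.491, below Igfbp7 in all 10 tumors. Igfbp3 (6.10 ± 1.34) and Igfbp5 (4.46 ± 3.08) were neighbors that exchanged places, Igfbp3 being higher in 8 tumors. Igf1 was at 1.88 ± 0.423, Igf2 at 0.52 ± 0.324 and Igfbp2 at 0.0347 ± 0.0338 CPM per kb.

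**Figure D4:**
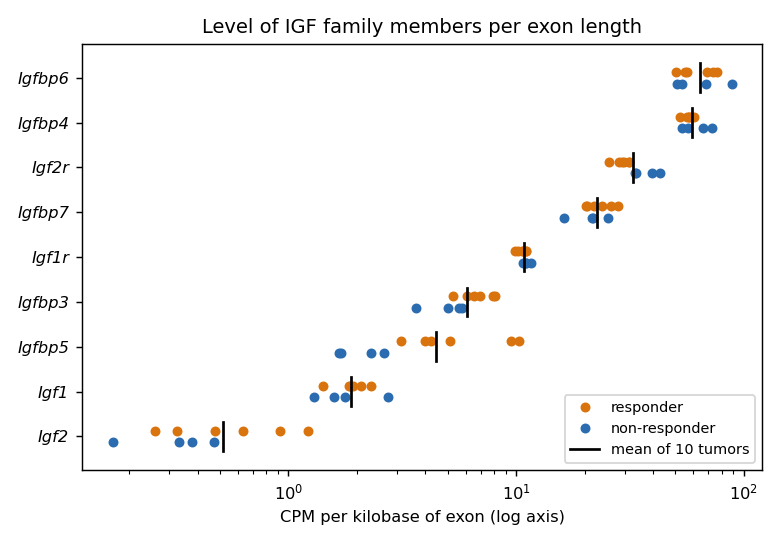
CPM per kilobase of exon (horizontal log axis) of 9 members in each tumor, ordered by the mean of 10 tumors (black lines), with responders and non-responders in separate colors. Igfbp6 and Igfbp4 lie highest at about the same level, Igf2 is lowest, and Igfbp2, at 0 in some tumors, is not drawn.

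Binding proteins thus made up most of the family RNA per length, and the receptors exceeded both ligands in all 10 tumors. Igfbp6 and Igfbp4 took 40.2% ± 4.46 and 36.7% ± 3.84 of the summed binding protein level in responders (SD, n = 6) and 41.6% ± 4.68 and 40.1% ± 2.72 in non-responders (SD, n = 4). Igfbp7 took 14.96% ± 1.55 and 13.7% ± 1.80. Igfbp5 took between 1.99% and 6.37% in responders and between 0.925% and 1.92% in non-responders, a small share even where it was highest. Igf1 exceeded Igf2 per length in every tumor, by 1.51 to 6.40 times in responders and 3.38 to 8.26 times in non-responders, and the lowest ratio was in responder 3.

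Other genes of the pathway were listed by role, 52 in all, of which 42 were tested. The counts were 2 higher and 2 lower in responders, 38 without a call and 20 estimates above 0, where 8.06% of all genes tested were called. The 4 calls fell to 0 without responder 3, non-responder 1 or non-responder 4, when 13, 10 and 11 of these genes had an unadjusted p under 0.05 in edgeR, to 1 without responder 1, 2 or 5, and to 2 without responder 6 or non-responder 3. Among 7 receptors and adaptors, 1 was lower, Irs1, the substrate that couples IGF1R and the insulin receptor to PI3K, at 15.8 ± 1.72 against 20.9 ± 2.13 CPM (log2 fold change -0.41, SE 0.09, adjusted p = 0.033 in edgeR). Of 13 genes of the PI3K, AKT, mTOR and FOXO relay, 1 was lower, Mtor, the growth kinase, at 90.4 ± 3.65 against 106.9 ± 5.84 CPM (log2 fold change -0.24, SE 0.05, adjusted p = 0.0245 in edgeR). Among the 42 genes, the groups did not overlap for the called genes Irs1, Mtor and Stat5b. They also did not overlap for Shc1 and Pik3cb, which were not called. For Shc1 they nearly touched, at 166.8 to 198.3 CPM in responders and 198.4 to 208.9 CPM in non-responders (adjusted p = 0.197 in edgeR). The share without overlap over all genes tested was 10.4%. Irs1 was called in 2 of the 10 fits that left out a tumor, with a log2 fold change between -0.46 and -0.35. Its adjusted p in edgeR was 0.0550, 0.0516, 0.0598, 0.0575 and 0.0525 without responders 1, 2, 3, 5 and 6 in turn, and 0.0848, 0.0681 and 0.0639 without non-responders 1, 3 and 4. Mtor was called in 7 of those fits and lost without responder 3 or non-responder 1 or 4 (adjusted p = 0.0618, 0.0602 and 0.0584 in edgeR).

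Of 5 genes tested on the growth hormone axis, 1 was higher, Stat5b, a transcription factor that relays growth hormone to Igf1, at 75.1 ± 2.68 against 66.6 ± 1.84 CPM (log2 fold change 0.17, SE 0.04, adjusted p = 0.0321 in edgeR). Igfals, Igfbp1 and Igfbpl1 were too low to test. Of 4 genes tested in the list of Igf2 mRNA binding and mannose 6-phosphate receptors, 1 was higher, Igf2bp3, a fetal RNA-binding protein that binds Igf2 mRNA, at 2.95 ± 0.724 against 1.54 ± 0.4997 CPM (log2 fold change 0.95, SE 0.24, adjusted p = 0.0401 in edgeR), with overlapping groups. Stat5b and Igf2bp3 were each called in 3 of the 10 fits that left out a tumor, and neither changed sign. Stat5b was lost without responder 1, 2, 3 or 5 (adjusted p = 0.0536, 0.0575, 0.0694 and 0.0525 in edgeR) or non-responder 1, 3 or 4 (0.0835, 0.0602 and 0.0822). Igf2bp3 was lost without responder 1, 2, 3, 5 or 6 (adjusted p = 0.0638, 0.0611, 0.0730, 0.0650 and 0.0599 in edgeR) or non-responder 1 or 4 (0.103 and 0.104). M6pr, the smaller mannose 6-phosphate receptor, which was chosen after its values were seen, had an estimate of 0.18 (SE 0.07, adjusted p = 0.104 in edgeR), against -0.36 for Igf2r.

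Of 9 proteases of binding proteins and their inhibitors, 0 were called by edgeR, and the smallest p was that of Stc1, a stanniocalcin that inhibits PAPP-A (log2 fold change -0.41, SE 0.19, unadjusted p = 0.050, adjusted p = 0.172 in edgeR). Among 4 imprinted growth genes tested 0 were called, and Mest had the smallest p (log2 fold change -0.67, SE 0.32, adjusted p = 0.194 in edgeR). The median log2 fold change of the lists lay between -0.11 for receptors and adaptors and 0.24 for Igf2 mRNA binding.

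**Figure D5:**
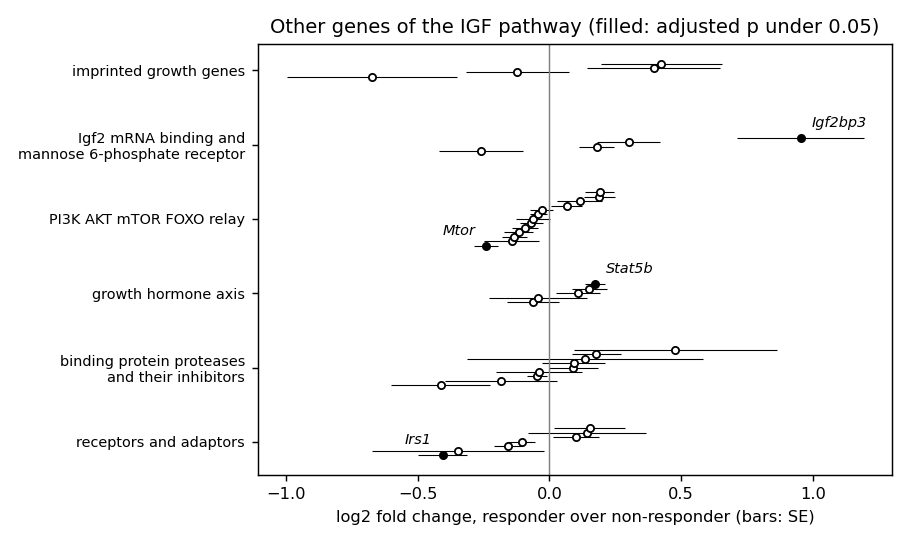
Log2 fold change of responders over non-responders with SE (horizontal axis) for 42 tested pathway genes, grouped by list. The 4 filled points, Irs1, Mtor, Stat5b and Igf2bp3, passed an edgeR adjusted p of 0.05.

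The genes most like a member were sought by Pearson's r of log2 CPM over 10 tumors, after the mean of each group was removed, among 13733 genes with at least 1 CPM on average. The points share libraries and depth, and the best of many genes has a high r by selection, so the values are a description. For Igfbp5 they were Tmed10 (r = 0.96), Klhl31 (r = 0.95) and Acta1 (r = 0.95), the last an actin of skeletal muscle. Igf2r was close to Frmd4a and Pals2 (r = 0.99 and 0.97). The nearest to Igfbp3 were Asb7, Fam20c and Ppp1r2 (r = 0.92, 0.92 and 0.92).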

How the data were processed

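The authors checked reads with FastQC, obtained transcript abundances from kallisto pseudoalignment and used tximport to collapse them to genes of mm10 (GRCm38). Expected counts, also called estimated counts, were deposited without scaling for depth, and 45.1% of them were fractional. Neither the annotation release nor the tximport option nor the strand setting is given in the sources used here. Unnamed rows (9633, at most 1.23% of counts) stayed in the library sizes. Groups followed the response label, tumors are numbered in accession order, and no batch was given.

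Counts were rounded and analyzed with edgeR 4.0.16 in R 4.3.3, using filterByExpr (minimum count 10, minimum total 15), TMM factors and the quasi-likelihood test, two-sided, with Benjamini-Hochberg adjustment over 16041 genes and a threshold of 0.05. The code was tested on simulated data. CPM is relative to the TMM-scaled library, log2 CPM used a prior count of 2, and SE is the absolute log2 fold change over the square root of F. Exon lengths and coordinates came from GENCODE on GRCm38, which matched 35991 identifiers.

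The members and lists were chosen with earlier results of these data known. All members are named. Of each pathway list, called genes and the gene with the smallest p are named, and also Shc1 and Pik3cb, whose groups did not overlap. M6pr, which met none of these rules, is named as well and was chosen after its values were seen. For likeness, the 3 genes nearest to each of the 3 members with the smallest p are named, except 1 that is not reported here. H19, Airn and Meg3 are not analysed here. Alternatives were RLE factors, DESeq2 1.42.0, limma 3.58.1 (voom), no filter, each tumor left out, and the longest transcript as length.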

Additional observations from a re-analysis of the deposited data

Results flagged for a closer look

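In 18 groups of log2 CPM values, 9 members in responders and in non-responders, no tumor stood far from the rest of its group by Dixon's criterion, where chance gives about 0.9.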

How the results depend on the processing

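The number of calls depended on single tumors more than on the tool. Leaving out each tumor gave 0 to 1897 called genes, 0 to 2 IGF family members (2 with all tumors) and 0 to 5 pathway genes (4 with all tumors). No gene passed by edgeR without non-responder 4, although 4106 had an unadjusted p under 0.05, 3 of them members and 11 pathway genes. Without non-responder 1 the counts were 16 genes, 0 members and 0 pathway genes, and without responder 3 they were 17, 0 and 0. DESeq2 called 2602 genes and limma voom 1 member, Igf2r. Igf2r kept its call in 2 and Igfbp5 in 4 of the 10 fits that left out a tumor, and neither changed sign in any alternative. The signs of Igf1 (-0.093 to 0.30) and Igfbp6 (-0.15 to 0.13) turned in 3 and 2 of those fits, with 0 of them called by edgeR. Of 126 alternative fold changes of members, 105 kept direction and side of the threshold. With the longest transcript as length, Igfbp4 (68.3 CPM per kb) moved above Igfbp6 and no other member changed place. Leaving out each tumor kept the order of levels in 10 of 10 cases. Counts for Igf2 and Igfbp2 were the most limited by depth.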

Other observations

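Igfbp5 and Igfbp2 lie next to each other on chromosome 1, 5457 bases apart and facing each other, yet Igfbp5 had 253 to 2209 counts per tumor and Igfbp2 had 0 to 6. In the same way Igfbp3 on chromosome 11 was read in every tumor at 306 to 813 counts, while Igfbp1 had 0 counts.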
